A study of Mus musculus with 10 samples.

Results

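The Dlx family is a set of homeobox genes, and its 6 mouse members, *Dlx1* to *Dlx6*, were followed from the bud to the cap stage of the first molar. The members were picked by name, each matched through the Ensembl gene ID that the study's gene lists give for it, and they are 6 of the 27528 genes measured. All 6 had a value on all 10 arrays. RNA came from dissected first molar germs of NMRI mice, with 12 to 18 germs pooled for a sample and 5 arrays at each of the embryonic stages E13.5 (bud) and E14.5 (cap). Age was the only labelled difference between the groups, and no transgene, mutation or treatment was given for either of them. Each sample was read on 1 Affymetrix Mouse Exon 1.0 array. Signals were taken from their range to be on a log2 scale, on which a difference of 1 is a doubling.

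Dlx proteins bind DNA through a homeodomain and act as transcription factors in the craniofacial ectoderm, the neural crest of the branchial arches, the forebrain and the limb. Mammalian *Dlx* genes lie in neighbouring pairs that share enhancers, and the members of a pair are often expressed in similar places. In the branchial arches their nested domains help to set proximal and distal jaw identity, and Bmp and Fgf signals from the oral epithelium induce several of them. *Dlx1* and *Dlx2* together are needed for upper molars to form, *Dlx3* and *Dlx5* are known for roles in bone, dentin and enamel, and *Dlx6* acts with *Dlx5* in the lower jaw. All 6 were tabulated by the study among genes with a tooth phenotype known from double mutants.

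In the RefSeq annotation (GRCm38.p6) *Dlx1* and *Dlx2* lie on chromosome 2, *Dlx3* and *Dlx4* on chromosome 11 and *Dlx5* and *Dlx6* on chromosome 6, with 0 protein-coding genes between the members of a pair. Noncoding genes overlap 3 of the 6, *Dlx1as* at *Dlx1*, *Dlx4os* at *Dlx4*, and *Dlx6os1* and *Dlx6os2* at *Dlx6*. The sources used here do not say whether a probe set excludes sequence shared with such a partner, so part of those 3 signals could come from it. Promoters were listed for 2 of the 6 genes. They are shown because *Dlx1* and *Dlx2* are neighbours whose signals changed unequally between the stages. Each runs 5′ to 3′ on the strand of its gene, from 250 bases before to 50 bases after the annotated start, at chr2:71529195-71529494 (plus strand) for *Dlx1* and chr2:71546705-71547004 (minus strand) for *Dlx2*. Capitals mark matches, on either strand, to the GC box GGGCGG, the CCAAT box (ATTGG on the other strand) and the palindromic E-box CACGTG.
Dlx1: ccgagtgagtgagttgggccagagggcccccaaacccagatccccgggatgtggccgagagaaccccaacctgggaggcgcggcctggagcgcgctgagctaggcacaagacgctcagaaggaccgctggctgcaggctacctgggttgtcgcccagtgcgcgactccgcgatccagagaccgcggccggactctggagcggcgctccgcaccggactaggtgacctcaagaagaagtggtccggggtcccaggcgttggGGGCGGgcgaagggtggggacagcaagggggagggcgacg
Dlx2: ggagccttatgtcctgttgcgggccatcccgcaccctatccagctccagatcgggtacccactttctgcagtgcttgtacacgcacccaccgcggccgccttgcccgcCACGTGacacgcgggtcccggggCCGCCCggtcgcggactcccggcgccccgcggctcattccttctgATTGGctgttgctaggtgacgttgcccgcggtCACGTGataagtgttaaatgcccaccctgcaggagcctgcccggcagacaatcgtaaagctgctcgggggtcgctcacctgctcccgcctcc

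Both windows are rich in CpG, with 27 in *Dlx1* and 29 in *Dlx2* against a median of 7 over 32851 mouse promoters of the same length. The GC content was 69.3% for *Dlx1* and 66.3% for *Dlx2* against a median of 52.7%. The *Dlx1* window held 1 GC box, which begins 10 bases after the start, and no CCAAT box or E-box. The *Dlx2* window held 1 GC box at 119, 1 CCAAT box at 74 and 2 E-boxes at 142 and 42 bases before the start. The shares of all promoters with at least 1 match were 35.7% for the GC box, 37.4% for the CCAAT box and 7.15% for the E-box, and 0.594% held 2 or more E-boxes. Neither window held the homeodomain core TAATTA or the TATA box TATAAA, which were found in 5.29% and 13.6% of promoters. These matches describe letters in the windows and are not measurements of binding.

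Of the 6 *Dlx* genes, 2 were lower and 2 higher at E14.5 at an adjusted p under 0.05, and the other two did not pass. *Dlx1* and *Dlx6* fell, *Dlx3* and *Dlx4* rose, and *Dlx2* and *Dlx5* were not shown to change. The share called was 4 of 6, where 7.85% of all 27528 genes were called (limma with Benjamini-Hochberg adjustment over all genes), 4.36% as higher and 3.49% as lower. Both falls held whichever array was left out, but without replicate 5 of E13.5, replicate 5 of E14.5 or replicate 6 of E14.5 the count was 2 of 6, with 0 higher. In these same 4 genes the bud and cap arrays did not overlap, 2 with the cap arrays above and 2 below, where 8.84% of all genes did not overlap, 4.82% above and 4.01% below. The median size of the change was 0.42 log2 units over the members and 0.095 over all genes. Because rises and falls balanced, the median signed change of the members was 0.026, close to that of all genes, which was -0.015. The whole table includes dim genes. With genes under the median signal left out, which removes *Dlx4*, 2412 of 13764 genes and 3 *Dlx* genes were called. Of 11 other homeobox genes in the study's lists, 1 was called higher and 4 lower. Of 5 other double mutant genes, 3 were called lower. The study describes the samples as biological replicates, and nothing in the labels says which pools came from separate litters. The p-values set a change against the spread between these arrays.

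**Figure D1:**
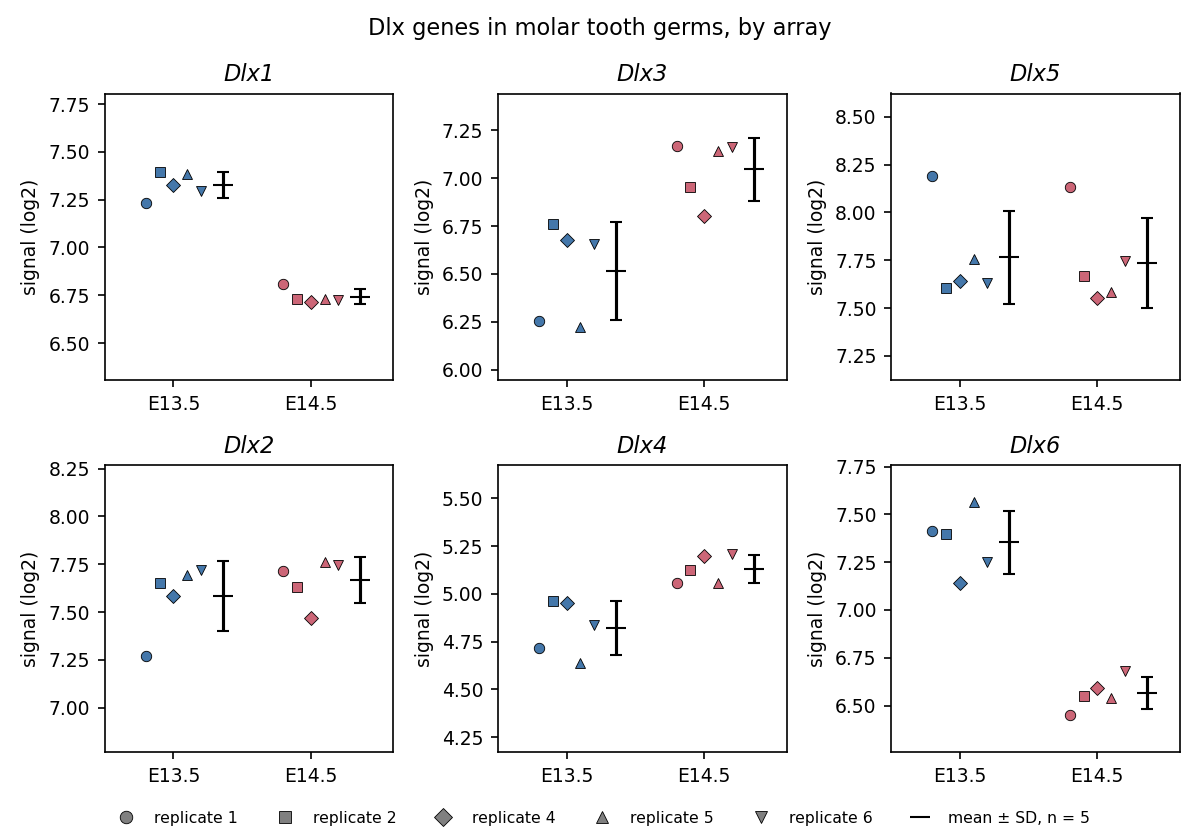
Signal (log2, vertical axis, the same span in every panel) of each Dlx gene on each array at E13.5 (blue) and E14.5 (red), with 1 marker shape per replicate number and the mean ± SD (n = 5) beside the points. The stages are separate for Dlx1, Dlx3, Dlx4 and Dlx6 and overlap for Dlx2 and Dlx5, and replicate 1 is the highest array for Dlx5 at both stages.

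*Dlx1* (ENSMUSG00000041911) was lower at the cap stage on every array. At E13.5 its signals were 7.23, 7.40, 7.33, 7.38 and 7.29 in replicates 1, 2, 4, 5 and 6, the order kept for all genes below. At E14.5 they were 6.81, 6.73, 6.71, 6.73 and 6.72. The lowest bud array was 0.42 above the highest cap array, and 4 of the 5 cap arrays lay within 6.71 to 6.73. The mean went from 7.33 ± 0.067 to 6.74 ± 0.039 (SD, n = 5 each). The change was -0.59 ± 0.058 (SE) with a 95% interval of -0.71 to -0.46, or 1.50-fold lower (limma adjusted p = 7.27e-05). Only 2.58% of genes had a larger change in either direction. In pooled whole germs, fewer cells expressing a gene and less RNA in each of them cannot be told apart.

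*Dlx2* (ENSMUSG00000023391), the neighbour of *Dlx1* and its partner in early tooth and jaw patterning, did not pass the test. Its signals were 7.27, 7.65, 7.59, 7.70 and 7.72 at E13.5. They were 7.71, 7.63, 7.47, 7.76 and 7.75 at E14.5. The stages overlapped, with replicate 1 the lowest bud array and replicate 4 the lowest cap array. The means were 7.58 ± 0.18 and 7.67 ± 0.12 (SD, n = 5), and the difference of 0.081 ± 0.095 (SE) had a 95% interval of -0.13 to 0.29 (limma adjusted p = 0.773). That interval does not reach a fall of the size seen in *Dlx1*. Without the arrays numbered 1 at either stage the difference was -0.0092, so its sign rested on them.

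The gap between the 2 neighbours widened accordingly. *Dlx1* minus *Dlx2* within an array was -0.040, -0.25, -0.26, -0.31 and -0.42 at E13.5. At E14.5 it was -0.90, -0.90, -0.76, -1.03 and -1.02. All 5 cap arrays were below all 5 bud arrays. The mean gap moved from -0.26 ± 0.14 to -0.92 ± 0.11 (SD, n = 5), by -0.67 with a 95% interval of -0.85 to -0.48. The exact two-sided permutation p was 0.00794, the smallest that 5 against 5 arrays allow, and 0.0119 after adjustment over the 3 linked pairs. Probes differ in how well they bind, so the sign of a gap within a stage says nothing of which gene has more transcripts, and only its change between stages was read.

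**Figure D2:**
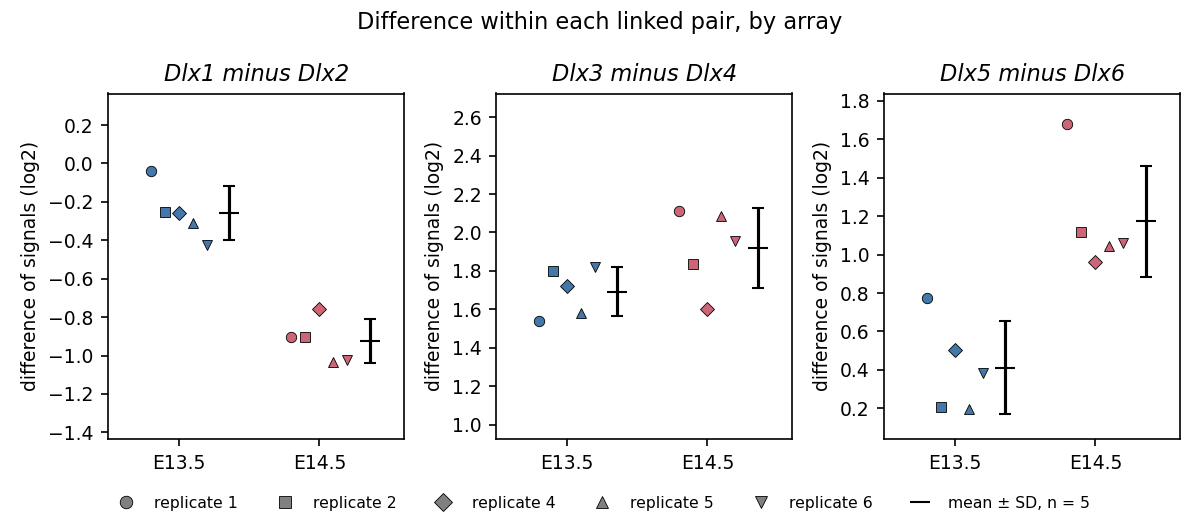
Difference between the signals of the 2 genes of each linked pair (log2, vertical axis, the same span in every panel) on each array at E13.5 (blue) and E14.5 (red), with the mean ± SD (n = 5). The stages are separate for Dlx1 minus Dlx2, which went down by 0.67, and for Dlx5 minus Dlx6, which went up by 0.76, and they overlap for Dlx3 minus Dlx4.

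*Dlx3* (ENSMUSG00000001510), a regulator of ectodermal appendages and of enamel and dentin genes, was higher at the cap stage. Its signals were 6.26, 6.76, 6.68, 6.22 and 6.66 at E13.5. They were 7.17, 6.96, 6.80, 7.14 and 7.17 at E14.5. The bud arrays fell into a low pair, replicates 1 and 5, and 3 higher arrays, and the highest bud array was 0.038 below the lowest cap array. The mean rose from 6.51 ± 0.26 to 7.05 ± 0.16 (SD, n = 5), by 0.53 ± 0.12 (SE) with a 95% interval of 0.26 to 0.80, or 1.45-fold (limma adjusted p = 0.0204). The call was lost without replicate 5 of E13.5 (0.46, limma adjusted p = 0.0543), replicate 5 of E14.5 (0.51, 0.0567) or replicate 6 of E14.5 (0.50, 0.0618). It was also lost without both arrays numbered 1 (0.44, limma adjusted p = 0.0982).

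*Dlx4* (ENSMUSG00000020871), the neighbour of *Dlx3*, also rose. Its signals were 4.72, 4.96, 4.95, 4.64 and 4.84 at E13.5. They were 5.06, 5.12, 5.20, 5.06 and 5.21 at E14.5. The stages were 0.093 apart at their nearest arrays, and at E13.5 the same replicates 1 and 5 were the lowest. The mean rose from 4.82 ± 0.14 to 5.13 ± 0.073 (SD, n = 5), by 0.31 ± 0.078 (SE) with a 95% interval of 0.14 to 0.48, or 1.24-fold (limma adjusted p = 0.0327). A larger change was seen in 10.2% of genes. This signal stood above 43.4% of genes at E13.5 and 50.1% at E14.5, and whether it exceeds the background of the array could not be examined without detection calls. The call was lost on leaving out any 1 of 7 arrays, namely replicates 1, 5 and 6 of E13.5 and replicates 2, 4, 5 and 6 of E14.5, with changes of 0.26 to 0.32 and limma adjusted p of 0.0558 to 0.0952. It was also lost without both arrays numbered 1 (0.30, limma adjusted p = 0.0853).

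The gap of *Dlx3* over *Dlx4* was not shown to change. *Dlx3* minus *Dlx4* was 1.54, 1.80, 1.72, 1.58 and 1.82 at E13.5. At E14.5 it was 2.11, 1.83, 1.60, 2.09 and 1.96. The stages overlapped through the low E14.5 replicate 4. The mean gap went from 1.69 ± 0.13 to 1.92 ± 0.21 (SD, n = 5), and the change of 0.23 had a 95% interval of -0.026 to 0.48 (exact two-sided permutation p = 0.0635, also 0.0635 after adjustment). The interval leaves room for a rise of *Dlx3* that exceeds that of *Dlx4* by up to 0.48 units. Without E14.5 replicate 4 the change was 0.30, and the adjusted exact permutation p was then 0.0119. Leaving out any other single array did not take the change past the threshold (adjusted exact permutation p of 0.0635 to 0.143).

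*Dlx5* (ENSMUSG00000029755), a regulator of osteoblasts and of the lower jaw, did not pass the test. Its signals were 8.19, 7.60, 7.64, 7.76 and 7.63 at E13.5. They were 8.13, 7.67, 7.56, 7.58 and 7.74 at E14.5. Replicate 1 stood above the other 4 arrays at both stages, by 0.43 at E13.5 and 0.39 at E14.5. The means were 7.76 ± 0.24 and 7.74 ± 0.23 (SD, n = 5), and the difference of -0.029 ± 0.14 (SE) had a 95% interval of -0.33 to 0.27 (limma adjusted p = 0.959). Without the arrays numbered 1 the means were 7.66 ± 0.068 and 7.64 ± 0.085 (SD, n = 4). The sign turned without replicate 1 of E13.5 (0.077) or without replicate 4 (0.017) or 5 (0.0095) of E14.5. Of all genes, 8.87% were highest on the array numbered 1 at both stages.

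*Dlx6* (ENSMUSG00000029754), the neighbour of *Dlx5*, had the largest change of the family. Its signals were 7.41, 7.40, 7.14, 7.56 and 7.25 at E13.5. They were 6.45, 6.55, 6.59, 6.54 and 6.68 at E14.5. Every cap array was below every bud array, by at least 0.46. The mean went from 7.35 ± 0.16 to 6.56 ± 0.084 (SD, n = 5). The change was -0.79 ± 0.085 (SE) with a 95% interval of -0.97 to -0.60, or 1.73-fold lower (limma adjusted p = 0.000138). Only 1.23% of genes changed more. A fall of this size is outside the interval of *Dlx5*.

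Within the pair, *Dlx5* minus *Dlx6* was 0.78, 0.20, 0.50, 0.20 and 0.38 at E13.5. At E14.5 it was 1.68, 1.12, 0.96, 1.04 and 1.06. The stages did not overlap, and replicate 1 had the highest gap at both. The mean gap rose from 0.41 ± 0.24 to 1.17 ± 0.29 (SD, n = 5), by 0.76 with a 95% interval of 0.37 to 1.15 (exact two-sided permutation p = 0.00794, adjusted 0.0119). Without the arrays numbered 1 the rise was 0.72 (exact permutation p = 0.0286, adjusted 0.0429). With stage medians in place of means, this gap was 0.68 and that of *Dlx1* and *Dlx2* -0.64 (exact permutation p = 0.0476, adjusted 0.0714 for both). A raw p of 0.0476 is the smallest that medians of 5 against 5 arrays allow. With *Dlx3* minus *Dlx4* at 0.119 (exact permutation), neither gap could pass the threshold after adjustment, so the medians do not decide. In both pairs with a change in the gap, 1 gene fell and its neighbour was not shown to change.

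**Figure D3:**
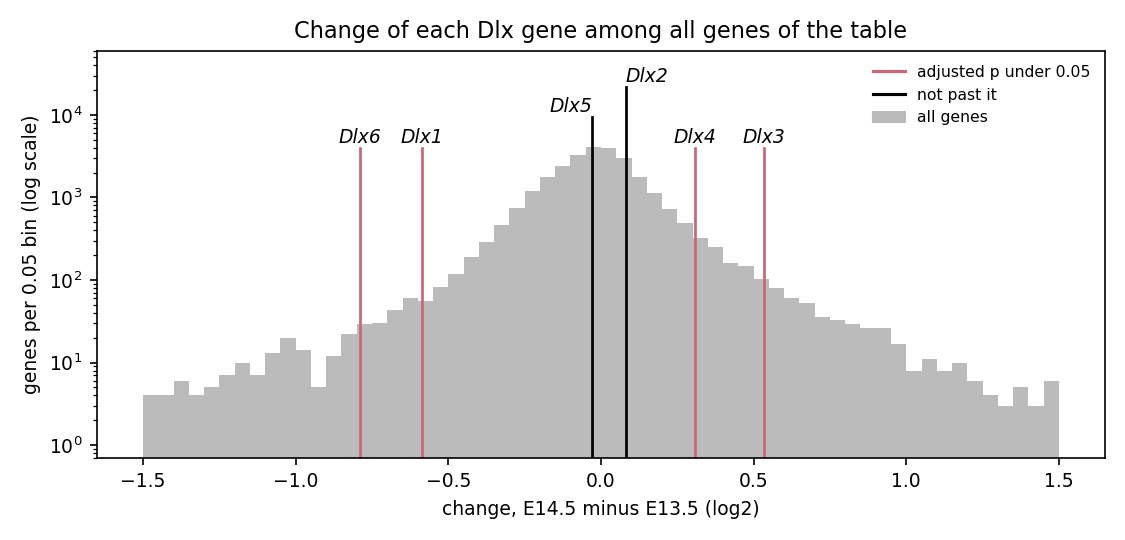
Change from E13.5 to E14.5 (log2, horizontal axis) of the 6 Dlx genes as vertical lines over the number of all genes per bin of 0.05 (vertical axis, log scale). Dlx6 at -0.79 and Dlx1 at -0.59 lie in the lower tail and Dlx3 at 0.53 in the upper one, while Dlx5 and Dlx2 lie near the centre; 32 genes with changes beyond 1.5 units are not drawn.

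Against the rest of the table, *Dlx5* had a higher signal than 92.6% of genes at both stages, and *Dlx2* than 90.6% and then 91.9%. *Dlx1* moved from 87.5% to 79.1% and *Dlx6* from 87.7% to 76.1%. *Dlx3* went the other way, from 74.8% to 83.9%. The SD over arrays at E13.5 exceeded the median SD of all genes, 0.149, in 4 of the 6. At E14.5 it exceeded the median of 0.139 in 2 of them. *Dlx1* was the steadiest of the family at both stages. These positions depend on probe binding as well as on transcripts.

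Profiles over the 10 arrays were then compared as the root mean square distance between genes, each centred on its own mean. Among the 15 pairs of *Dlx* genes the smallest distance was 0.16, between *Dlx1* and *Dlx6*, which lie on different chromosomes. *Dlx3* and *Dlx4* came next with 0.19. The other linked pairs were farther apart, *Dlx1* and *Dlx2* at 0.35 and *Dlx5* and *Dlx6* at 0.45, and ranked 7 and 10 of 15. *Dlx3* and *Dlx6* were the farthest, at 0.72. Of all genes, 1.55% were nearer to *Dlx3* than *Dlx4* was, and 22.6% were nearer to *Dlx4* than *Dlx3* was. For the pair of *Dlx1* and *Dlx2* the shares were 61.8% seen from *Dlx1* and 87.7% seen from *Dlx2*. For *Dlx5* and *Dlx6* they were 91.6% seen from *Dlx5* and 58.1% seen from *Dlx6*. The distances combine the change between stages with the spread within them. The shares also depend on how many genes change little. The median size of change over all genes was 0.095, so a gene with little change tends to have many genes near it.

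**Figure D4:**
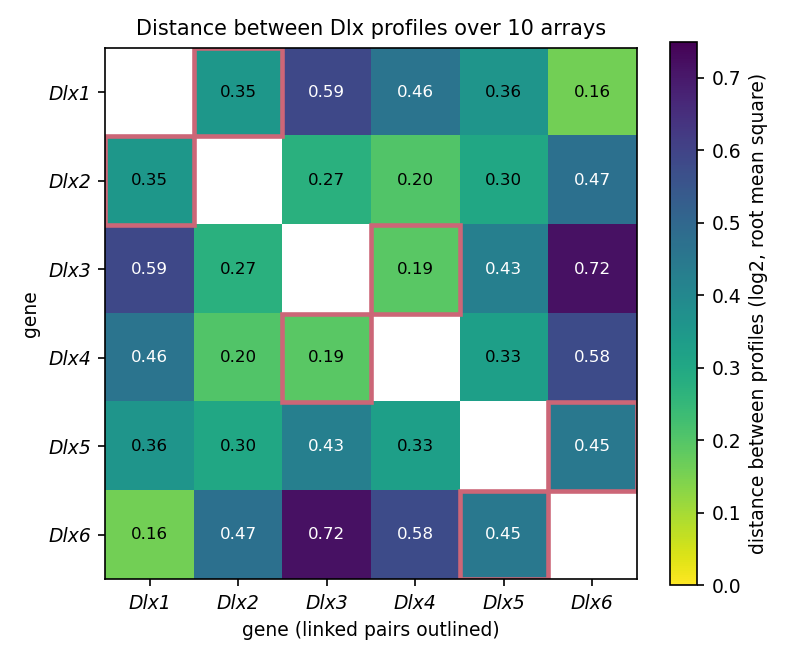
Root mean square distance (log2, colour scale and printed values) between the centred profiles of each pair of Dlx genes (both axes) over 10 arrays, with the linked pairs outlined. Dlx1 and Dlx6 are nearest at 0.16, and of the linked pairs Dlx3 and Dlx4 have the smallest distance, at 0.19.

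Outside the family, 389 genes with a symbol and a value were searched for the profile nearest to each member. The search used the same arrays as the test between stages. A gene near a member therefore tends to share its change, and the test results below only describe the genes found. For *Dlx1* it was *Slit3*, a secreted guidance ligand, at a distance of 0.070 and with a change of -0.66 (limma adjusted p = 3.03e-05). For *Dlx6* it was *Fgf10*, a mesenchymal Fgf ligand, at 0.099 and with a change of -0.78 (limma adjusted p = 2.72e-05). For *Dlx3* it was the ligand *Wnt4*, at 0.11 and with a change of 0.39 (limma adjusted p = 0.0232). For *Dlx4* it was *Relb*, a subunit of NF-kB, at 0.063 and with a change of 0.35 (limma adjusted p = 0.00629). The nearest to *Dlx2* was *Csnk1e*, a casein kinase, at 0.060, and the nearest to *Dlx5* was *Ta3* at 0.10, and neither of these passed the test.

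Other homeobox genes in the study's lists numbered 11, of which 1 rose, 4 fell and 6 did not pass, with a median change of -0.011. *Msx2*, an effector of Bmp signals, rose by 0.77 (limma adjusted p = 0.000195). *Msx1*, needed for teeth to pass the bud stage, fell by 0.98 (1.02e-05) and *Barx1*, a molar mesenchyme factor, by 0.97 (0.000438). The LIM homeobox genes *Lhx6* and *Lhx8*, which mark oral mesenchyme, fell by 1.09 (3.3e-06) and 1.45 (3.1e-06). The falls of these 4 genes were larger than that of *Dlx6*, though the differences between genes were not tested. Of the 5 other double mutant genes, 3 were lower, *Lhx6*, *Lhx8* and *Gli3*, a transducer of Hedgehog signals that fell by 0.34 (limma adjusted p = 0.0381), and *Gli2* and *Acvr2b* did not pass.

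**Figure D5:**
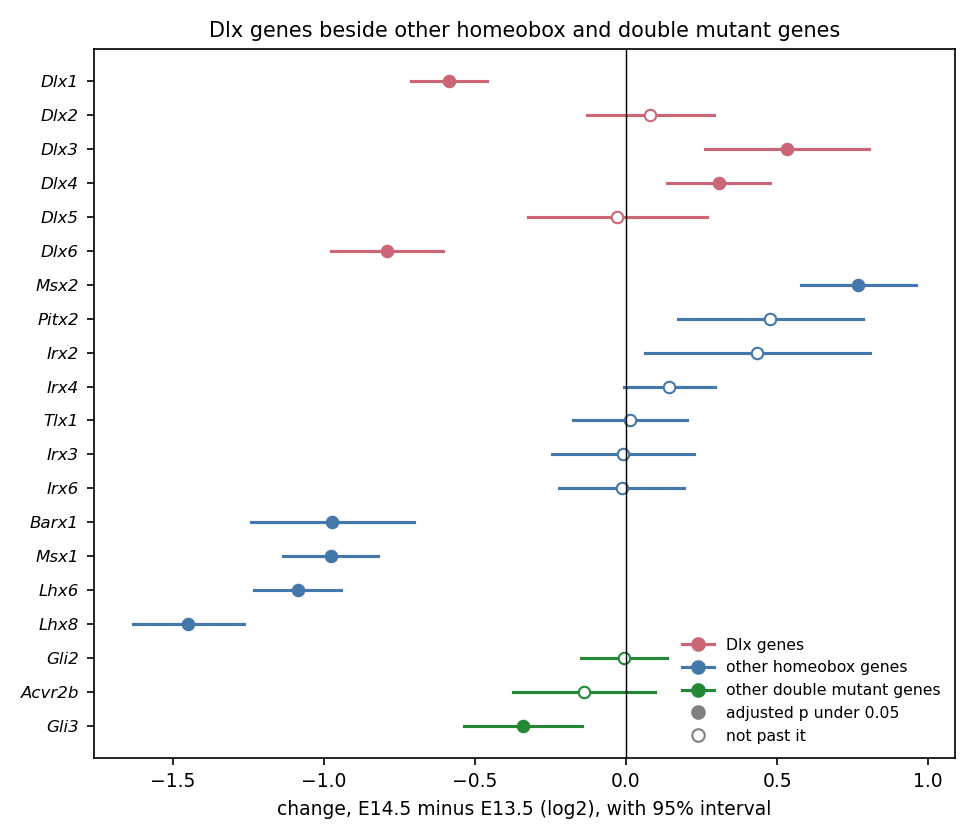
Change from E13.5 to E14.5 (log2, horizontal axis) with its 95% interval for the Dlx genes (red), other homeobox genes (blue) and the remaining double mutant genes (green), filled where the limma adjusted p was under 0.05. Dlx1 and Dlx6 lie left of 0 and Dlx3 and Dlx4 right of it, inside the range set by Msx2 at 0.77 and Lhx8 at -1.45.

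Of 4 ligands known to act upstream of *Dlx* genes, 1 rose and 1 fell. *Bmp2* rose by 0.81 (limma adjusted p = 0.000623) and *Bmp4*, whose expression shifts from epithelium to mesenchyme before the cap forms, fell by 0.56 (0.000596). The values for *Bmp7* and *Fgf9* did not pass. Of 7 hard tissue genes known to be regulated by Dlx3 or Dlx5, only *Alpl*, alkaline phosphatase, passed, with a rise of 0.74 (limma adjusted p = 0.00897). The other 6, among them the enamel genes *Amelx*, *Enam* and *Klk4* and the dentin gene *Dspp*, did not pass. *Ambn*, an enamel gene outside this list, was called lower (-0.68, limma adjusted p = 0.0137), though its stages overlapped. Its signal at E13.5 stood above 76.4% of genes. At E13.5 the signals of *Enam*, *Dspp* and *Amelx* stood above 18.5%, 28.9% and 38.0% of genes. Whether they exceed the background of the array could not be examined. The study places matrix secretion days after the cap stage.

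Markers of the tissues in a germ moved between the stages as well. Of 8 epithelial markers 7 rose and none fell, and their mean level was 6.91 to 7.29 over the bud arrays and 7.67 to 7.88 over the cap arrays. Of 6 dental mesenchyme factors 5 fell, with mean levels of 8.37 to 8.56 and then 7.44 to 7.57. Stromal matrix and receptor genes were divided, 2 higher and 2 lower of 6, at 7.84 to 8.11 and then 7.70 to 7.81, with *Pdgfra* changing most, by -1.13 (6.55e-05). Of 7 enamel knot markers 5 rose, with mean levels of 6.04 to 6.44 and then 7.30 to 7.59, led by *Shh* with 2.02 (8.69e-06). Of 4 genes of bone forming cells 2 rose, with mean levels of 4.76 to 5.24 and then 5.55 to 5.96, led by *Spp1* with 1.89 (3.31e-05). None of the 2 endothelial or 3 nerve and glia markers passed. The falls of *Dlx1* and *Dlx6* ran beside falls of mesenchyme factors, while stromal genes moved both ways. The rises of *Dlx3* and *Dlx4* ran beside rises in the epithelial, enamel knot and bone forming lists alike. A shared direction does not tie a *Dlx* gene to 1 tissue, and the part of tissue proportions in any of these changes was not tested. On E13.5 replicate 1, where *Dlx5* was high and *Dlx2* low, the epithelial level was 6.91 against 7.17 to 7.29 on the other 4 bud arrays and the stromal level 8.11 against 7.84 to 7.87. The enamel knot level there was 6.04 against 6.39 to 6.44, that of bone forming cells 5.24 against 4.76 to 5.09, and that of endothelium 5.96 against 5.63 to 5.90. On E14.5 replicate 1, where *Dlx5* was again high, the epithelial level was 7.88 against 7.67 to 7.84 and the stromal level 7.81 against 7.70 to 7.75. The levels of the enamel knot, 7.30 against 7.31 to 7.59, and of bone forming cells, 5.55 against 5.67 to 5.96, were then the lowest. The part of any of these in the *Dlx5* signal was not tested.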

How the data were processed

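The authors used aroma.affymetrix with a Brainarray custom probe grouping, version 23, to normalize the arrays to 1 value per Ensembl gene. The deposited values span 1.30 to 12.83, with array medians of 5.06 to 5.22 and SDs of 1.51 to 1.74, and were taken to be log2 for that reason. The log base, background correction and summary model are not given in the sources used here. No detection call or scan date was used, so that signal over background and scan batches were not examined, and the number of arrays limits the precision.

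Stages were taken from the labels and compared in R 4.3.3 by a two-sided limma 3.58.1 fit without covariates (lmFit, eBayes), adjusted by Benjamini-Hochberg over 27528 genes with a threshold of 0.05. Gaps within a linked pair were tested by exact permutation over 252 assignments of arrays, adjusted over 3 pairs, with a pooled-variance interval. In simulated data, 90% of 200 genes changed by 1 log2 unit were recovered, with 8 false calls. Those values were drawn independently, without effects shared within an array. Every *Dlx* change was smaller than 1 unit, so recovery at the sizes seen here was not examined. Promoters came from RefSeq (GRCm38.p6). Of 399 symbols that the study pairs with an ID, 395 were measured.

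The members and lists were chosen with earlier results of these data known, and lists share genes. Named genes are the members, those past the threshold among other homeobox, double mutant, ligand and hard tissue genes, the largest change past the threshold in each marker list with one (1 is not reported here), and the nearest profile to each member. *Bmp7*, *Fgf9*, *Gli2*, *Acvr2b* and the 4 listed enamel and dentin genes were added to name the remainder of short lists. *Ambn*, which is in none of the lists, was added after its values were seen. Alternatives were other normalizations and variance models, a replicate block and leaving out arrays. Permutations and plots used scipy 1.17.1 and numpy 2.4.6 under Python 3.11.15, with pandas 2.3.3 for tables and matplotlib 3.10.9 for drawing.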

Additional observations from a re-analysis of the deposited data

Results flagged for a closer look

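Within the 5 arrays of a stage, 3 of the 18 sets of values examined held 1 array far from the others, where chance gives about 1 in 20, or 0.9 of 18. *Dlx1* was 6.81 on E14.5 replicate 1 and 6.71 to 6.73 on the other 4 cap arrays, all of them below every bud array. *Dlx5* was 8.19 on E13.5 replicate 1 and 7.60 to 7.76 on the other 4 bud arrays. *Dlx5* minus *Dlx6* was 1.68 on E14.5 replicate 1 and 0.96 to 1.12 on the other 4 cap arrays. These values come from 2 arrays, the ones numbered 1 at each stage. The 18 sets are not independent, since the pair gaps reuse the values of the genes and all sets share the same arrays. The excess over 0.9 was therefore not tested.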

How the results depend on the processing

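*Dlx1* and *Dlx6* stayed lower and past the threshold in all 18 alternatives run, with changes of -0.63 to -0.55 and -0.84 to -0.74. Leaving out 1 array at a time gave 0.46 to 0.59 for *Dlx3*, 0.26 to 0.34 for *Dlx4* and -0.13 to 0.077 for *Dlx5*. The number of *Dlx* genes called was then 2 to 4, with 0 to 2 higher and 2 lower. Pair gaps changed by -0.71 to -0.61 (*Dlx1* and *Dlx2*), 0.18 to 0.30 (*Dlx3* and *Dlx4*) and 0.63 to 0.85 (*Dlx5* and *Dlx6*).

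Without both arrays numbered 1, chosen after seeing the data, *Dlx2* was -0.0092, *Dlx3* 0.44 and *Dlx4* 0.30, with 2 *Dlx* genes called and 0 higher. *Dlx5* turned to 0.0052 with array spread as a covariate and to 0.010 after quantile normalization. The cause was not tested. Leaving out dim genes removed *Dlx4* by construction, so 1 gene was higher. Stage medians gave -0.64 for *Dlx1* minus *Dlx2* and 0.68 for *Dlx5* minus *Dlx6*, neither past the threshold (exact permutation, adjusted p = 0.0714). The raw p of 0.0476 for both was the smallest possible for medians. With *Dlx3* minus *Dlx4* at 0.119 (exact permutation), neither could pass after adjustment. Quantile normalization took *Dlx3* minus *Dlx4* past the threshold (0.26, exact permutation, adjusted p = 0.0397).

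Arrays of the same number correlated in their deviations by -0.079 to 0.51, over 0.1 in 3 of 5 numbers. Of 10 arrays, 5 matched their own number best. These values do not settle whether the numbers pair samples. The main tests took no account of the numbers, and a block by number is given as an alternative. With the replicate block *Dlx3* kept 0.53 (limma adjusted p = 0.0575), leaving 1 gene higher. The blocked pair gaps of -0.67 and 0.76 had an adjusted exact p of 0.0938, the raw 0.0625 being the smallest possible. Over all genes 2077 were called in place of 2162. The number of arrays limits all of these values, and signal over background is unknown.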
